A study of Mus musculus with 9 samples.

Results

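The 8 genes described here encode caspases and proteins that switch them on or hold them back: Casp2, Casp6, Casp8 and Casp9, the scaffold gene Apaf1, the inhibitor genes Cflar and Xiap, and Diablo, whose product counters Xiap. They were chosen by symbol, each symbol matched 1 Ensembl identifier of the GENCODE M21 annotation, and all 8 of the 8 passed the count filter, among 43629 genes in the table and 11002 that could be tested. RNA came from cultures of an Eµ-Myc lymphoma, a B cell lymphoma of mice that carry a Myc transgene under the immunoglobulin heavy chain enhancer. All cultures were of the 1 clone labelled 4242, so every group carries the transgene. The exposure lasted 2 h, and the groups of 3 libraries each received JQ1 at 1 µM, RG6146 at 2.5 µM, or the solvent DMSO alone. JQ1 and RG6146 inhibit BET bromodomain proteins, readers of acetylated histones that help to start and sustain transcription.

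Caspases are cysteine proteases that lie in the cell as inactive precursors. Death receptors activate Casp8, and its catalytically inactive relative Cflar (also called FLIP) competes with it for a place on the receptor complex. In the mitochondrial route, cytochrome c released from mitochondria lets Apaf1 assemble the apoptosome, which activates Casp9. Casp9 and Casp8 then cleave executioner caspases, while Xiap binds and blocks Casp9 and the executioners until Diablo (also called SMAC) leaves the mitochondria and displaces it. Eµ-Myc lymphomas are widely used to study this machinery, because Myc drives both growth and cell death in B cells.

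Of the 8 genes, 2 rose and 3 fell after JQ1, and 2 rose and 3 fell after RG6146. After JQ1 the test called 28.9% of all tested genes, 13.6% as higher and 15.4% as lower. After RG6146 it called 26.0%, 12.5% as higher and 13.5% as lower. The test is the quasi-likelihood test of edgeR, and a call is a Benjamini-Hochberg adjusted p under 0.05. With scaling by library size in place of TMM, 8.30% of all genes were called higher and 22.2% lower after JQ1, and 7.99% and 18.9% after RG6146, while 1 of the 8 genes rose and 3 fell after JQ1, and 2 rose and 3 fell after RG6146. Without RG6146 replicate 1, 1 of the 8 rose and 2 fell after RG6146, and of 11185 tested genes 1065 were called higher and 1174 lower. Casp8, Cflar and Xiap were lower and Apaf1 and Diablo were higher in each comparison with DMSO, while Casp2, Casp6 and Casp9 passed the test in neither. The comparisons with DMSO share the same 3 DMSO libraries. In bulk RNA, fewer cells of a type and less RNA per cell cannot be told apart. The median log2 fold change of the 8 genes was -0.15 after JQ1 and -0.30 after RG6146, against 0.0047 and 0.0086 over all tested genes. These medians lie between genes that did not pass, Casp2 and Casp6 after JQ1 and Casp9 and Casp2 after RG6146.

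The promoters of 4 called genes, a pair that fell and a pair that rose, are shown so that their base composition and motifs can be compared. They are RefSeq windows of build GRCm38.p6, 300 bases each, and all 8 genes had at least 1 window. Each runs from 250 bases before to 50 bases after a start that RefSeq gives for the gene. Capitals mark matches, on either strand, to the GC box GGGCGG, the CCAAT box CCAAT and the TATA box TATAAA.
Casp8, chr1:58802252-58802551, plus strand: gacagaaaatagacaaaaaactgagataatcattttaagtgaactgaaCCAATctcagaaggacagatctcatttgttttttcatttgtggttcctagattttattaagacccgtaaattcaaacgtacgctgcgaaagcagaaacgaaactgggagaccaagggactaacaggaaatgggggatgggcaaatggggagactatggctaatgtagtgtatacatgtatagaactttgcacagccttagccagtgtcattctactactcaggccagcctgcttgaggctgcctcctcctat
Cflar, chr1:58711241-58711540, plus strand: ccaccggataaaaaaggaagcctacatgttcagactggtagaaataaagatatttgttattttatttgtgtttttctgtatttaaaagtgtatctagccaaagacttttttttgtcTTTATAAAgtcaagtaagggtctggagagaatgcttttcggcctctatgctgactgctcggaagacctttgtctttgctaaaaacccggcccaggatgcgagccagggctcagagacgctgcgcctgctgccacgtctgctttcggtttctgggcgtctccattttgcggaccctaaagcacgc
Apaf1, chr10:91082694-91082993, minus strand: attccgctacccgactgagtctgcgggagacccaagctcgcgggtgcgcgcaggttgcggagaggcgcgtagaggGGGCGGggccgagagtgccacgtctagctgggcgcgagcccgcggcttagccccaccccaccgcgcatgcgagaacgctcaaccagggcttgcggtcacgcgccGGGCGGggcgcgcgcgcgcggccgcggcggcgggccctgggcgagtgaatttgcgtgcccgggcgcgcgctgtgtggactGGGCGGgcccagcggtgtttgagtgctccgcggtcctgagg
Diablo, chr5:123524115-123524414, minus strand: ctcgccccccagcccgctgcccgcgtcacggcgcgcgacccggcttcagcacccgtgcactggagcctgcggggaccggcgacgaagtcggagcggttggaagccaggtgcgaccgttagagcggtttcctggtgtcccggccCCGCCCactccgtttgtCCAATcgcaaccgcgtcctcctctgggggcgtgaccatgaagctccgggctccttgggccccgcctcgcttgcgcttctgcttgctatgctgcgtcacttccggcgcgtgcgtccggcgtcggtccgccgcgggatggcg

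Casp8 and Cflar, which fell, had windows with 42.0% and 45.0% G and C and with 5 and 12 CpG dinucleotides. The Casp8 window lies inside the span that GENCODE gives the gene, which starts at 58795374, so it does not cover that start. Apaf1 and Diablo, which rose, had 74.7% and 71.7% and 46 and 42 CpG dinucleotides, where the median window of 32851 held 52.7% G and C. The GC box occurred 3 times in Apaf1 and 1 time in Diablo and had no match in the Casp8 and Cflar windows, and 35.7% of all windows held it. Cflar had 2 overlapping matches to the TATA box (13.6% of all windows), and Casp8 and Diablo had 1 match each to the CCAAT box (37.4%). The E-box CACGTG, the sequence that Myc and its partner Max bind, had no match in any window of the 8 genes and occurred in 7.2% of all windows. Composition and the GC box did not follow the calls throughout. Casp2, Casp6 and Casp9, which were not called, had 63.7%, 62% and 66.0% G and C and 2, 3 and 4 GC boxes. The 3 windows of Xiap, which fell, had 50%, 61.7% and 37.7% G and C and 2, 2 and 0 GC boxes. They too lie inside the GENCODE span of the gene. A match is a description of the letters only.

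Levels are given as CPM, the read counts relative to the TMM-scaled library size. The libraries read about 1 tag per transcript near its polyadenylated end, so levels of different genes are set side by side on this scale without division by length. Under DMSO, Xiap had the highest level of the 8, at 73.1 ± 6.46 CPM (SD, n = 3), above 80.8% of tested genes. Diablo (28.1 ± 3.5 CPM), Cflar (27.0 ± 3.01 CPM) and Casp2 (23.4 ± 2.43 CPM) came next and overlapped with their neighbours in this order. Apaf1 (19.3 ± 0.736 CPM) lay near the median tested gene, at 20.1 CPM. Casp8 (14.2 ± 0.963 CPM), Casp9 (12.3 ± 0.751 CPM) and Casp6 followed without overlap between neighbours. The SDs of Casp8, Casp9 and Apaf1 were 6.76%, 6.09% and 3.81% of the mean. Counting error alone gives 12.9%, 13.8% and 11.1%, so these SDs understate the spread. The SDs of the other genes lay above their counting error. Casp6 was close to the detection limit, with 1.71 ± 0.786 CPM from 3 to 10 reads per library. The plot of levels by library shows the order and the shifts.

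**Figure D1:**
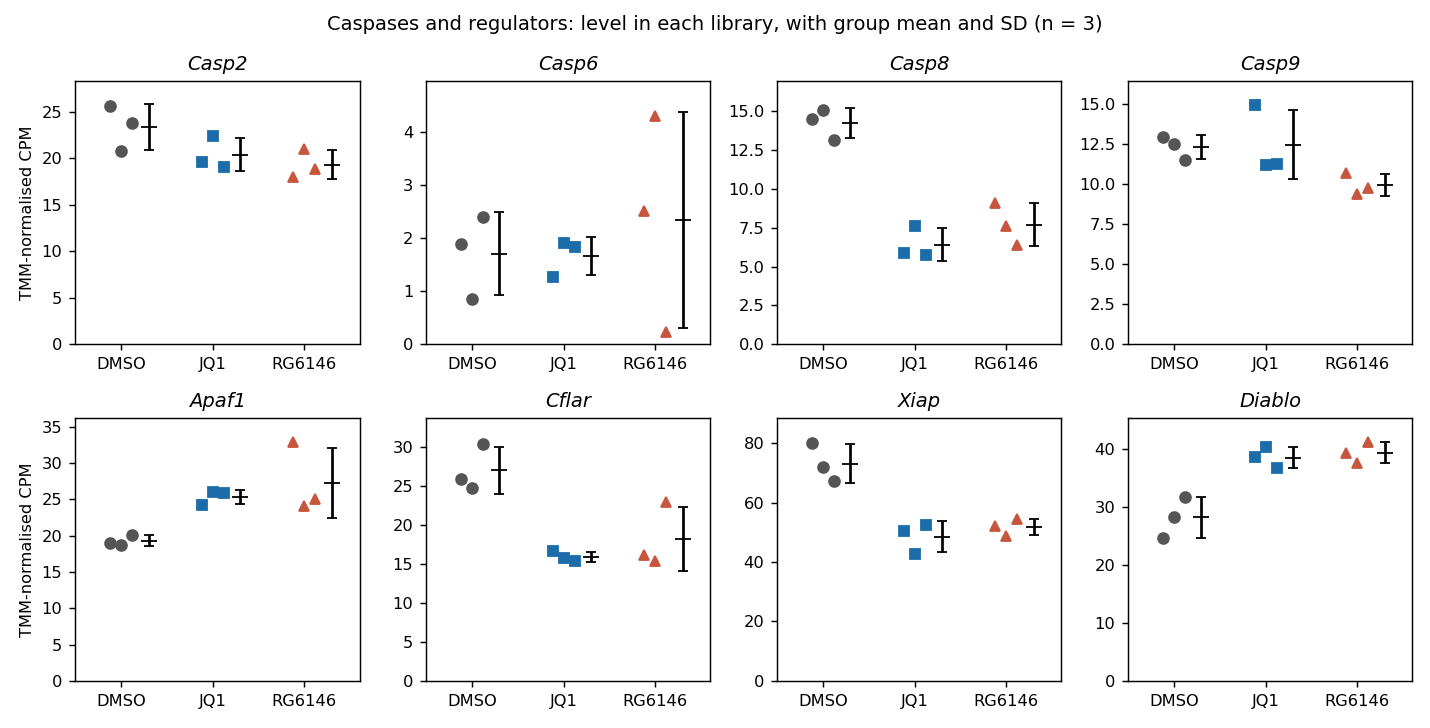
TMM-normalised CPM (vertical axes, each from 0) of the 8 genes in the 3 DMSO, 3 JQ1 and 3 RG6146 libraries (points), with group mean and SD beside them. For Casp8, Cflar and Xiap all treated libraries lie below all DMSO libraries, and for Apaf1 and Diablo all lie above them.

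The libraries held 3410161 to 5031717 gene counts each. All 8 markers of B cells had enough counts to test. They summed to between 684 and 764 CPM under DMSO, 356 and 372 under JQ1, and 378 and 424 under RG6146. Their log2 fold changes after JQ1 and RG6146 were all negative but uneven. Cd22 had -2.05 and -1.68, and Ebf1, the largest part of the sum, -0.80 and -0.64. Cd79a had -0.12 and -0.15 and did not pass (adjusted p = 0.415 and 0.296), and neither did Pax5 or Ms4a1. Of 10 markers of T and NK cells none reached the count filter, Trac and Ncr1 were at 0 counts in all libraries, and the list summed to 0.757 to 3.47 CPM. Of 9 myeloid markers 6 could be tested, and the list summed to 148, 693 and 343 CPM in DMSO replicates 1 to 3, 75.7, 247 and 57.8 CPM under JQ1 and 80.0, 113 and 109 CPM under RG6146, so every treated library except JQ1 replicate 2 lay below the lowest DMSO library. The granulocyte genes S100a8, S100a9 and Mpo made up most of the DMSO sum and did not pass the test (adjusted p = 0.128, 0.137 and 0.498 after JQ1 and 0.0952, 0.104 and 0.325 after RG6146). Csf1r, a receptor of macrophages, rose from 21.4 to 32.1 CPM after JQ1 (0.59 ± 0.15, adjusted p = 0.00714) and to 29.8 CPM after RG6146 (0.48 ± 0.15, adjusted p = 0.0250). The 7 stromal and endothelial markers, nearly all of it Pecam1, summed to 26.6 to 34.9 CPM under DMSO and 5.30 to 11.1 CPM in the treated groups, and the 5 erythroid markers to 2.2 to 10.4 CPM in all groups. Mitochondrially encoded genes took 4.74% to 6.18% of gene counts. The part of other cells in the results was not tested. Without DMSO replicate 2 and JQ1 replicate 2, which had the highest myeloid sums of their groups, 4 of the 8 genes were called after JQ1. After JQ1, 2529 of 11235 tested genes were called in this setting. Without DMSO replicate 2 alone, 5 of the 8 genes were called after RG6146, as were 2439 of 11292 tested genes.

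Casp8, the initiator caspase of the death receptor route, had the largest fall of the 8. Its level was 14.5, 15.1 and 13.2 CPM in the DMSO libraries, 5.89, 7.62 and 5.75 CPM under JQ1, and 9.12, 7.59 and 6.36 CPM under RG6146. Every treated library lay below every DMSO library. The log2 fold change was -1.15 ± 0.20 (SE; 2.22-fold lower, 95% interval -1.58 to -0.72, adjusted p = 3.5e-04) after JQ1. After RG6146 it was -0.89 ± 0.20 (1.85-fold lower, -1.31 to -0.47, adjusted p = 0.00274). The values rest on 53 to 77 reads per DMSO library, 22 to 32 per JQ1 library and 28 to 40 per RG6146 library. Casp8 (ENSMUSG00000026029, protein-coding) spans 58795374 to 58847503 on the plus strand of chromosome 1 in mm10.

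Cflar, the inhibitor of Casp8 activation, lies next to it on the same strand of chromosome 1 (58711508 to 58758884), 36.5 kb before the start of Casp8. It fell from 26.0, 24.7 and 30.4 CPM under DMSO to 16.6, 15.7 and 15.4 CPM under JQ1. The RG6146 libraries were at 16.2, 15.4 and 22.9 CPM. No treated library reached the lowest DMSO library, although RG6146 replicate 3 stood closer to DMSO than the other two. The log2 fold change was -0.76 ± 0.16 (1.7-fold lower, 95% interval -1.10 to -0.43, adjusted p = 0.00155) after JQ1 and -0.57 ± 0.16 (1.48-fold lower, -0.90 to -0.24, adjusted p = 0.0123) after RG6146. Leaving out 1 library ended the RG6146 call in 3 cases, DMSO replicate 3 (-0.48, adjusted p = 0.0637), RG6146 replicate 1 (-0.49, 0.0658) and RG6146 replicate 2 (-0.47, 0.0635). ERCC scaling, which sets libraries to equal amounts of synthetic spike-in RNA, ended it too (-0.53, 0.240), as did DESeq2 (-0.57, 0.0593). With the replicate number added as a block, ERCC scaling kept the RG6146 call (-0.55, adjusted p = 0.0125).

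Both partners of the pair were thus lower, and their ratio within a library gives the balance of the transcripts without any scaling. Cflar stood at 1.91 ± 0.350 times Casp8 under DMSO (1.64 to 2.31), 2.52 ± 0.404 times under JQ1 (2.06 to 2.82) and 2.47 ± 0.992 times under RG6146 (1.78 to 3.61). The ranges of the 3 groups overlapped. On the far side of Casp8, the next tested gene is Trak2, which encodes a mitochondrial trafficking adaptor and lies 52.9 kb away on the opposite strand. Trak2 rose by 0.51 ± 0.11 after JQ1 (adjusted p = 0.00186) and by 0.32 ± 0.11 after RG6146 (adjusted p = 0.0384), on the log2 scale.

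Xiap, which binds and inhibits Casp9 and the executioner caspases, fell from 80.1, 71.9 and 67.4 CPM under DMSO to 50.3, 42.8 and 52.5 CPM under JQ1. Under RG6146 it was at 52.0, 48.8 and 54.5 CPM. The 6 treated libraries lay between 42.8 and 54.5 CPM, all below the lowest DMSO library. With 180 to 426 reads per library it was the most deeply counted of the 8, and its standard errors were the smallest. The log2 fold change was -0.59 ± 0.10 (1.51-fold lower, 95% interval -0.81 to -0.37, adjusted p = 3.7e-04) after JQ1 and -0.50 ± 0.10 (1.41-fold lower, -0.72 to -0.28, adjusted p = 0.00175) after RG6146. ERCC scaling gave -0.59 with an adjusted p of 0.108 and -0.45 with 0.281, which ended the calls. With the replicate number added as a block, ERCC scaling kept both (-0.61, adjusted p = 8.5e-04, and -0.47, 0.00717). Xiap (ENSMUSG00000025860) spans 42059679 to 42109656 on the plus strand of chromosome X.

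Diablo, the mitochondrial antagonist of Xiap, moved the other way. It stood at 24.6, 28.1 and 31.6 CPM under DMSO, 38.5, 40.2 and 36.6 CPM under JQ1, and 39.2, 37.5 and 41.1 CPM under RG6146. The treated libraries lay within 36.6 to 41.1 CPM, above the highest DMSO library. The log2 fold change was 0.45 ± 0.11 (1.37-fold, 95% interval 0.21 to 0.69, adjusted p = 0.00598) after JQ1 and 0.48 ± 0.11 (1.40-fold, 0.24 to 0.72, adjusted p = 0.00418) after RG6146. ERCC scaling gave 0.42 with an adjusted p of 0.333 and 0.50 with 0.228, which ended the calls. With the replicate block added, ERCC scaling kept both (0.44, adjusted p = 0.0115, and 0.52, 0.00414). Diablo (ENSMUSG00000029433, minus strand of chromosome 5, 123509765 to 123524176) overlaps B3gnt4 on the opposite strand. B3gnt4 held 23 to 45 reads per library and had log2 fold changes of 0.62 ± 0.25 and 0.50 ± 0.25 (adjusted p = 0.0722 and 0.165). Gm49027, a protein-coding annotation on the same strand (123512082 to 123525488), covers most of Diablo except its 3′ end and is not analysed here. How reads in the spans that Diablo shares with either gene were assigned is not given in the sources used here.

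With Xiap lower and Diablo higher, the ratio of Xiap to Diablo within a library was 2.65 ± 0.567 under DMSO (2.13 to 3.25), 1.27 ± 0.188 under JQ1 (1.07 to 1.44) and 1.32 ± 0.0125 under RG6146 (1.3 to 1.33). The treated libraries did not overlap with DMSO, which follows from Xiap being lower and Diablo higher in all of them. Of the 4 ratios computed, those of Xiap to Diablo and Xiap to Casp9 were lower in all treated than in all DMSO libraries. The ratio of Xiap to Casp9 was 5.93 ± 0.221 under DMSO, 3.96 ± 0.663 under JQ1 and 5.22 ± 0.365 under RG6146. Under RG6146 the counting error was 6.76% for Xiap and 7.76% for Diablo, so the SD of 0.0125 is narrower than counting alone gives. These ratios are of transcript tags, chosen with the fold changes known, and are given without a test.

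**Figure D2:**
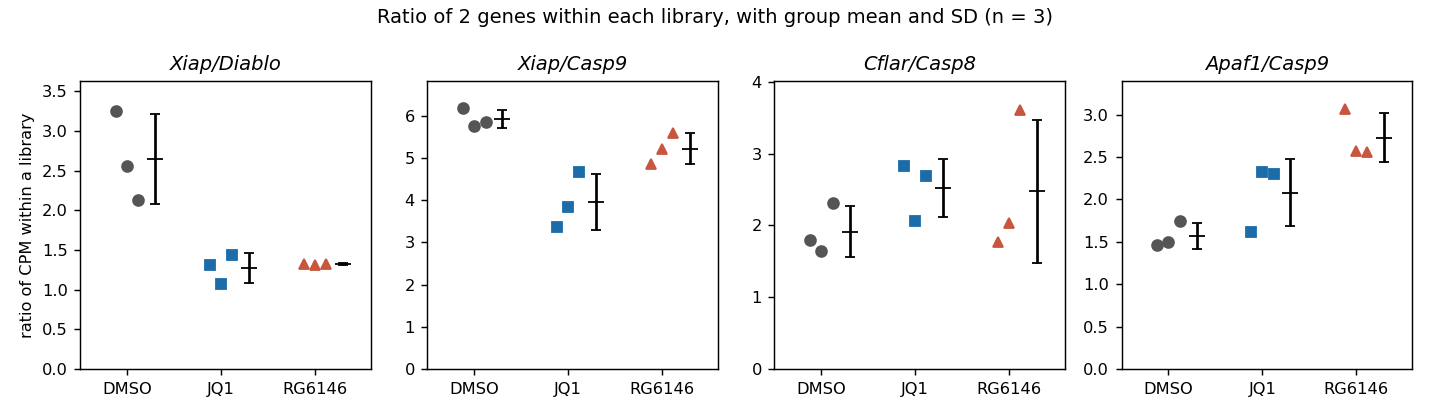
Ratio of CPM of 2 genes within each library (points, vertical axes from 0) with group mean and SD for Xiap/Diablo, Xiap/Casp9, Cflar/Casp8 and Apaf1/Casp9. The ratio Xiap/Diablo lies between 2.13 and 3.25 under DMSO and between 1.07 and 1.44 in the treated libraries, whereas Cflar/Casp8 overlaps between groups.

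Apaf1, the scaffold of the apoptosome, was at 19.0, 18.8 and 20.1 CPM under DMSO, 24.2, 25.9 and 25.9 CPM under JQ1 and 32.8, 24.0 and 25 CPM under RG6146. All treated libraries were above all DMSO libraries, and RG6146 replicate 1 was well above the rest. The log2 fold change was 0.39 ± 0.14 (1.31-fold, 95% interval 0.10 to 0.69, adjusted p = 0.0429) after JQ1 and 0.50 ± 0.14 (1.42-fold, 0.21 to 0.79, adjusted p = 0.0121) after RG6146. The JQ1 call lay close to the threshold and ended in 13 of 19 alternatives, whose log2 fold changes over all 19 ran from 0.26 to 0.43 and adjusted p-values from 0.0278 to 0.435. Leaving out any 1 of the DMSO or JQ1 libraries was enough to end it, with 0.38, 0.38 and 0.42 without DMSO replicates 1, 2 and 3, and 0.43, 0.38 and 0.38 without JQ1 replicates 1, 2 and 3. The RG6146 call ended without RG6146 replicate 1 (0.35, adjusted p = 0.0934), with DESeq2 (0.50, 0.0778) and with ERCC scaling (0.51, 0.248). ERCC scaling with the replicate block kept it (0.53, adjusted p = 0.0156) but not the JQ1 call (0.38, 0.0785). Apaf1 (ENSMUSG00000019979, minus strand of chromosome 10, 90989311 to 91082770) starts 0.17 kb from Ikbip, which runs the opposite way. Ikbip had 4 to 15 reads per library and log2 fold changes of -0.28 ± 0.38 and -0.98 ± 0.42 (adjusted p = 0.631 and 0.0958).

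Casp9, which the apoptosome activates, did not pass the test after either compound. Its level was 13.0, 12.5 and 11.5 CPM under DMSO, 14.9, 11.2 and 11.2 CPM under JQ1 and 10.7, 9.36 and 9.77 CPM under RG6146. The JQ1 libraries overlapped with DMSO, while the RG6146 libraries lay below all 6 others. The log2 fold change was 0.02 ± 0.18 (95% interval -0.35 to 0.39, adjusted p = 0.947) after JQ1 and -0.31 ± 0.18 (-0.69 to 0.07, adjusted p = 0.223) after RG6146. The 3′ end of Casp9 (chromosome 4, 141793612 to 141815976) overlaps Cela2a and Ctrc on the opposite strand, both at 0 counts in all 9 libraries. Apaf1 stood at 1.57 ± 0.156 times Casp9 under DMSO, 2.08 ± 0.399 times under JQ1 and 2.73 ± 0.289 times under RG6146. The RG6146 libraries lay above all others in this ratio, and the JQ1 libraries overlapped with DMSO.

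Casp2, an initiator caspase linked to DNA damage and to errors of cell division, was at 25.6, 20.8 and 23.7 CPM under DMSO, 19.6, 22.4 and 19.1 CPM under JQ1 and 18.0, 21 and 18.9 CPM under RG6146. Groups overlapped. The log2 fold changes were -0.20 ± 0.14 (95% interval -0.50 to 0.09, adjusted p = 0.292) and -0.28 ± 0.14 (-0.57 to 0.01, adjusted p = 0.148), so a fall of up to 0.57 after RG6146 lies within the interval. Casp6, an executioner caspase, was measured from 1 to 17 reads per library. Its 95% intervals, -1.54 to 1.36 after JQ1 and -0.98 to 1.77 after RG6146, include, in either direction, changes as large as that of Casp8 after the same compound, so such a change was not detectable at this depth. The plot of fold changes sets the intervals of the 8 genes side by side.

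**Figure D3:**
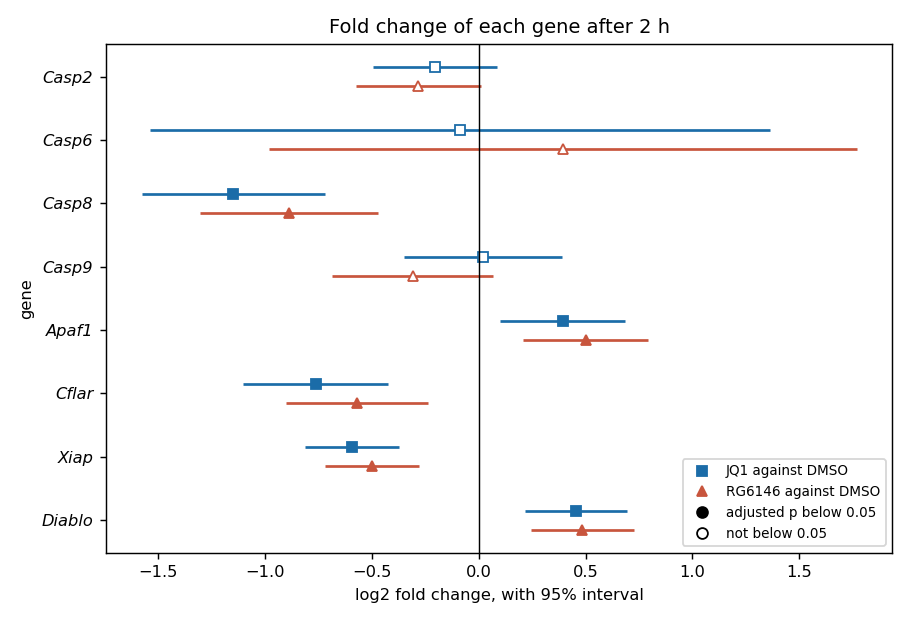
Log2 fold change (horizontal axis) of each gene with its 95% interval for JQ1 (squares) and RG6146 (triangles) against DMSO, where filled symbols passed the test. Casp8 lies lowest at -1.15 and -0.89, and the intervals of Casp6 are the widest.

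Groups did not overlap for 5 of the 8 genes after JQ1 and for 6 after RG6146, where 42.6% and 40.9% of all tested genes had groups that did not overlap. RG6146 against JQ1 is a comparison of compounds at different doses, 2.5 and 1 µM. It called 0 of the 8 genes, 0.00909% of all tested genes (1 gene, Gm12693, named after its value was seen), and DESeq2 also called 0 of the 8. At an unadjusted p below 0.05 the edgeR count was 0 as well, but only 3.88% of all tested genes passed there, so a count of 0 among 8 says little. Groups did not overlap for 1 of the 8 genes, Casp9, against 9.93% of all. The difference was 0.26 ± 0.22 for Casp8 (95% interval -0.19 to 0.72), 0.19 ± 0.16 for Cflar (-0.15 to 0.54) and 0.09 ± 0.11 for Xiap (-0.13 to 0.32). It was 0.03 ± 0.11 for Diablo (-0.20 to 0.27), 0.11 ± 0.14 for Apaf1 (-0.18 to 0.40) and -0.33 ± 0.18 for Casp9 (-0.71 to 0.05), all on the log2 scale. Casp2 had -0.08 ± 0.14 (-0.37 to 0.22) and Casp6 0.48 ± 0.65 (-0.91 to 1.87). Xiap and Diablo have the narrowest of these intervals, while those of Casp8, Casp9 and Casp6 still include differences of over 0.7.

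Around these genes, 59 other genes of cell death were listed by role, and 43 had enough counts to test. After JQ1 6 of them rose and 6 fell, and after RG6146 4 rose and 6 fell, with medians of 0.03 and 0.04. That is 27.9% and 23.3% called, near the shares of all tested genes. With DESeq2, which called 19.5% and 17.3% of all genes, 3 rose and 2 fell after JQ1, and 3 rose and 1 fell after RG6146. With ERCC scaling, which called 10.9% and 9.83% of all genes, 1 rose and 2 fell, and 0 rose and 1 fell. With the replicate block added, ERCC scaling called 2829 and 2604 of all 11002 genes. Of the 43, 5 then rose and 6 fell after JQ1, and 3 rose and 2 fell after RG6146. Library size scaling gave 3 higher and 9 lower after JQ1 and 2 higher and 7 lower after RG6146. Single libraries moved the counts too: 6 genes were called after JQ1 without JQ1 replicate 1. After RG6146 6 were called without DMSO replicate 1 or 3, and 5 without DMSO replicate 2, RG6146 replicate 1 or RG6146 replicate 2. Over all tested genes, leaving out 1 library gave 2492 to 3248 calls after JQ1 and 2239 to 2970 after RG6146.

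The inflammatory caspase genes Casp1 and Casp4 had too few reads to test and summed to 22 and 13 reads over all 9 libraries. Casp14, a caspase of the skin, had 1 read, and Casp12 had 0 reads of 38690091, which allows up to 0.0775 CPM by counting error alone.

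Of 8 tested genes of the inhibitor of apoptosis family and its antagonists, 1 rose and 2 fell after each compound. Birc3 (cIAP2), a ubiquitin ligase of death receptor complexes, fell from 20 to 10.2 CPM after JQ1 (-0.97 ± 0.18, adjusted p = 4.4e-04) and to 10.9 CPM after RG6146 (-0.88 ± 0.18, adjusted p = 0.00107). Its relative Birc2 had -0.11 and -0.20 and did not pass. Htra2, a mitochondrial protease that like Diablo can displace Xiap, fell by 0.37 and by 0.36 on the log2 scale (adjusted p = 0.0363 and 0.0406). Birc5 (survivin), which also serves in cell division, rose by 0.24 and 0.22 (adjusted p = 0.0187 and 0.0272). The Naip genes are close copies of each other, and reads may be split between them.

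Among 6 tested genes of the apoptosome and of mitochondrial release, Hspa8, a chaperone, rose by 0.41 and 0.36 (adjusted p = 1.6e-04 and 6.0e-04). Endog, a mitochondrial nuclease, rose by 0.54 ± 0.15 after JQ1 (adjusted p = 0.0120) and had 0.36 ± 0.15 after RG6146 (adjusted p = 0.0946). Cycs, the gene of cytochrome c, had 0.14 and 0.20 and did not pass (adjusted p = 0.231 and 0.0769).

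Of 13 tested genes of death receptors and their complex, 2 rose and 2 fell after JQ1 and 1 rose and 2 fell after RG6146. Cyld, a deubiquitinase of the complex, fell by 0.39 and 0.30 on the log2 scale (adjusted p = 0.00872 and 0.0386). The adaptor gene Tradd and the kinase gene Ripk1 rose after JQ1 by 0.68 ± 0.21 and 0.48 ± 0.13 (adjusted p = 0.0203 and 0.00804) and had 0.45 and 0.26 after RG6146 (0.132 and 0.150). Dedd fell by 0.57 on the log2 scale after JQ1 (adjusted p = 0.0133), and after RG6146 Dedd2 rose by 0.92 and Daxx fell by 0.28 (0.0355 and 0.0389). None of the 43 genes was called between RG6146 and JQ1 by edgeR or DESeq2, and 0 had an unadjusted p below 0.05, which 427 of all 11002 tested genes had. The receptor genes themselves had few reads, 12 for Fas, 32 for Tnfrsf1a and 20 for Tnfrsf10b over all libraries.

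The next list holds Cradd and Pidd1 of the Casp2 platform beside Nlrc4 and Ripk2, which are not part of it. Cradd, the adaptor that joins Casp2 to its platform, fell from 5.21 to 2.21 and 2.20 CPM (-1.25 ± 0.37 after each compound, adjusted p = 0.0160 and 0.0171). Ripk2, a kinase of pattern recognition receptors, rose from 7.48 to 14.9 and 13.0 CPM (0.98 ± 0.19 and 0.78 ± 0.20, adjusted p = 9.6e-04 and 0.00629). Pidd1, the platform protein, had -0.97 ± 0.54 and -1.11 ± 0.55 at 4.40 CPM under DMSO and did not pass (adjusted p = 0.195 and 0.154). Of 12 tested genes in the list of caspase substrates, 1 fell after each compound. It was Dffb, the nuclease that cuts DNA in dying cells, at -1.04 ± 0.36 and -1.05 ± 0.36 (adjusted p = 0.0371 and 0.0376). Dffb is not itself a substrate and was listed beside its inhibitor Dffa, which had -0.03 and -0.07 and did not pass. The plot of other cell death genes shows called genes on both sides of 0 in 3 of the 5 lists shown. They are the inhibitor of apoptosis family, the death receptors and the list labelled caspase-2 complex, where Ripk2 is the called gene above 0.

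**Figure D4:**
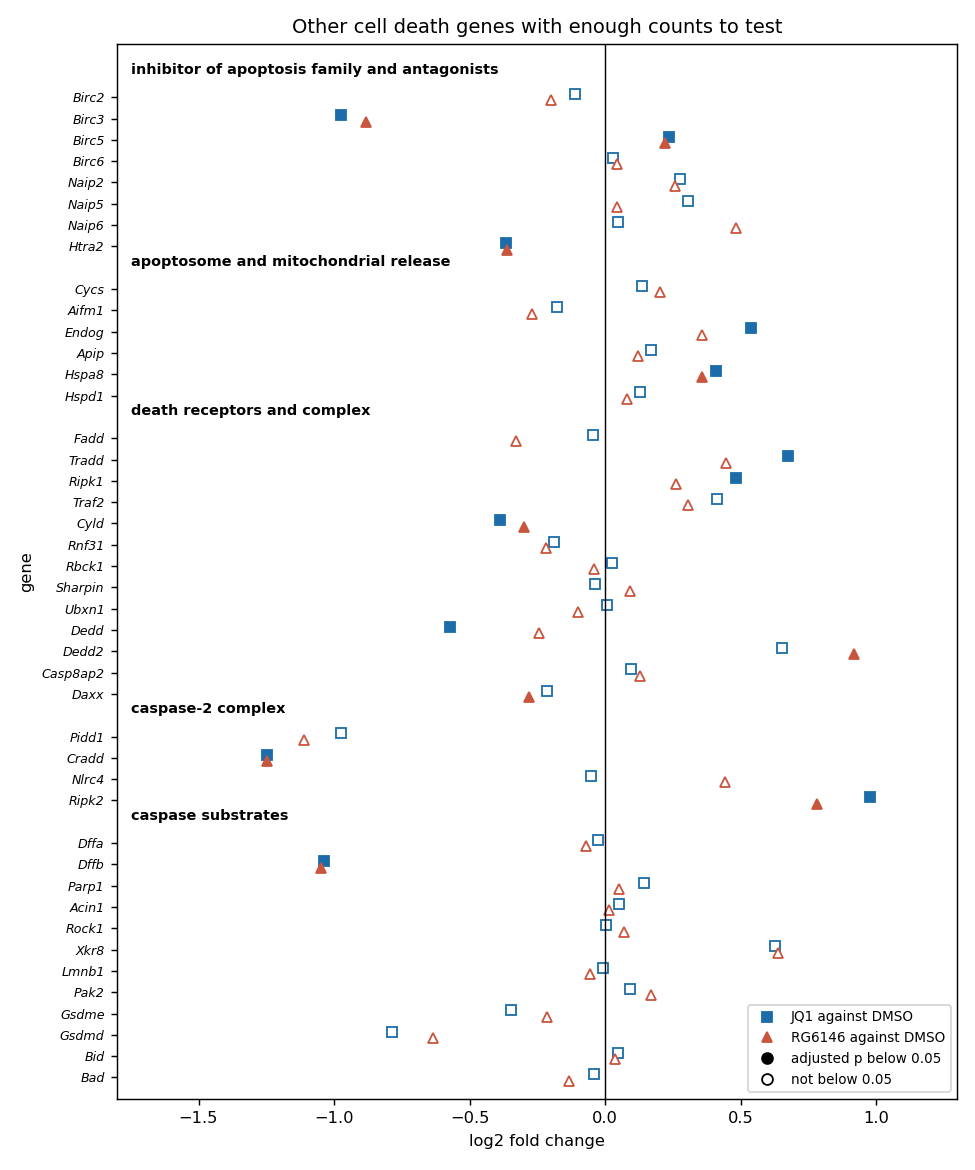
Log2 fold change (horizontal axis) of the 43 tested genes of the 5 other cell death lists with tested genes for JQ1 (squares) and RG6146 (triangles) against DMSO, where filled symbols passed the test. Birc3, Cradd and Dffb lie farthest to the left among called genes and Ripk2 farthest to the right among those called after both compounds.

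For each called gene, the 2 tested genes of at least 10 CPM with the most similar course over the 9 libraries were found by the root mean square difference of log2(CPM + 1), centred on the DMSO mean. Casp8 was closest to Gemin6 and Alg8 (differences of 0.0888 and 0.0896), Cflar to the kinase gene Syk and to Asxl1 (0.116 and 0.120), and Xiap to Cox10 and Aff1 (0.0714 and 0.0736). Apaf1 was closest to Tle4 and Usp9x (0.0818 and 0.0918) and Diablo to Rapgef6 and Pex6 (0.0701 and 0.0715). Syk, for example, had log2 fold changes of -0.76 and -0.67, next to -0.76 and -0.57 for Cflar. These are the nearest of 7410 genes compared for each, so near fold changes follow from the choice. Pex6 did not pass the test (adjusted p = 0.0598 and 0.0765).

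**Figure D5:**
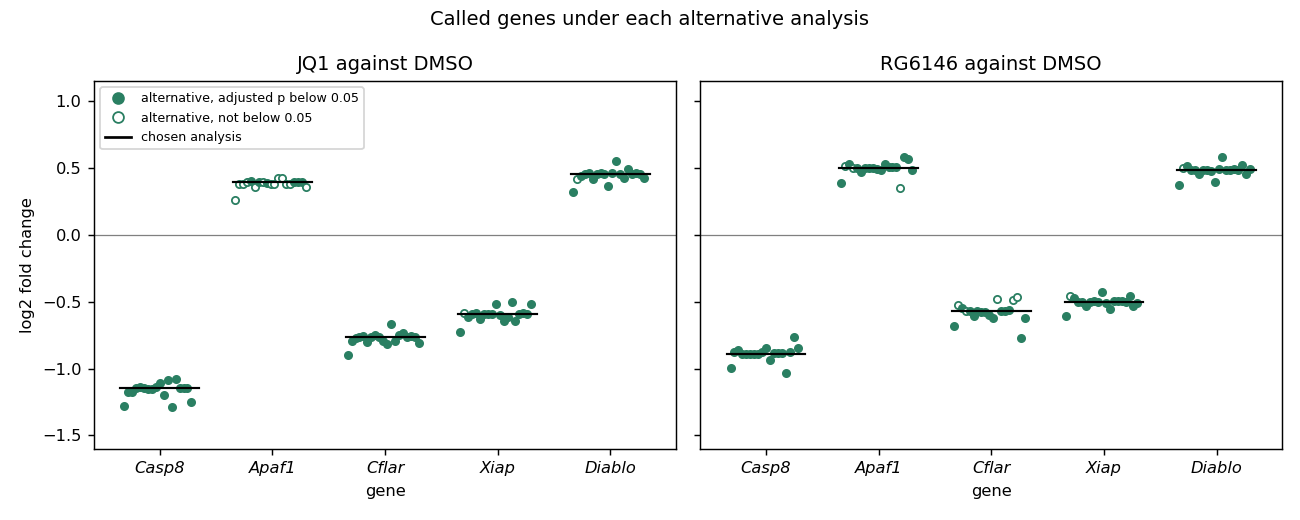
Log2 fold change (vertical axis) of the 5 called genes under each alternative analysis (points, filled where the adjusted p was below 0.05) beside the chosen analysis (black lines), for JQ1 and RG6146 against DMSO. Signs do not change, while most points of Apaf1 after JQ1 are open.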

How the data were processed

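3′ mRNA libraries were made with the QuantSeq kit from 500 ng of RNA and sequenced as single-end reads of 75 bases, per the labels' protocols. Values as deposited are gene-level read counts without any scaling. Tools that the authors name, per the submitters' processing notes, are limma, Subread with featureCounts, HISAT2 2.1.0 with build mm10, cutadapt 1.7, and FastQC 0.11.5 after bcl2fastq 2.17.1.14. Annotation release, strand setting and handling of multi-mapped reads: not given in the sources used here. Without a strand setting, reads of overlapping genes on opposite strands may not be separated. Library sizes and tests left out the 92 ERCC spike-in rows. Positions and symbols came from GENCODE M21, which named 42462 of 43629 identifiers, and promoters from the RefSeq table of GRCm38.p6.

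Counts were analysed with edgeR 4.0.16 in R 4.3.3: filterByExpr with a minimum count of 10, TMM scaling, and a robust quasi-likelihood model with 1 coefficient per group, fitted to all 9 libraries. Benjamini-Hochberg adjustment ran over all 11002 tested genes, with calls below 0.05. Log2 fold changes are without a prior count, and errors and 95% intervals are from the model's information matrix and moderated dispersion. The script was tested on simulated data. Replicate pairs differed beyond sampling noise (chi-square per degree of freedom 6.87 to 17.0). p-values describe the spread between cultures of 1 clone.

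The members and lists were chosen with earlier results of these data known. The rule for named genes took the 8 genes whatever their result, the called genes of the other lists, up to 4 in each direction, and the 2 most similar genes for each called member. Some genes of the lists are not reported here and are in no list count. Genes beside these, named for context, were chosen after their values were seen. Alternatives were other scalings, DESeq2 1.42.0, other filters, no robust moderation, only the 6 libraries compared, the replicate number as a block, and leaving out libraries.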

Additional observations from a re-analysis of the deposited data

How the results depend on the processing

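Over 448 values of the 8 genes under alternatives, 409 kept their direction and their side of the threshold, 25 lost the call, 0 gained one, 0 reversed and 14 changed sign while neither value was called. Casp8 and Casp6 were below 10 CPM on average and have no value under that filter, and Casp6 has none either where only the 6 libraries of JQ1 and DMSO, or of RG6146 and JQ1, were fitted, as the count filter then dropped it. Casp8 lost no call, with -1.28 to -1.08 after JQ1 and -1.03 to -0.76 after RG6146.

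ERCC scaling called 1196 genes after JQ1, 1082 after RG6146 and 4 in RG6146 against JQ1, instead of 3184, 2863 and 1. It called 2 and 1 of the 8 genes and 3 and 1 of the other cell death genes. It ended the calls of Apaf1 (0.38 and 0.51), Xiap (-0.59 and -0.45), Diablo (0.42 and 0.50) and, after RG6146, Cflar (-0.53). With the replicate block added, ERCC scaling called 2829 and 2604 genes and 4 and 5 of the 8. It then ended only the call of Apaf1 after JQ1 (0.38) and left 5 other cell death genes after RG6146. DESeq2 called 1902 genes and 3 of the 8 after RG6146, and 5 and 4 other cell death genes. It ended the calls of Apaf1 (0.39 and 0.50) and of Cflar after RG6146 (-0.57). Library size scaling, which moved the median of all genes to -0.13 after JQ1 and -0.10 after RG6146, ended that of Apaf1 after JQ1 (0.26). A mean of at least 10 CPM left 3 of the 8 called after JQ1, with 6 tested, and Apaf1 at 0.36, where 2416 of 7410 tested genes were called. In RG6146 against JQ1, 17 genes were called with no filter, and 0 with the 10 CPM filter, without robust moderation, with only 6 libraries or with the block.

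In gene levels the replicate numbers did not pair the libraries. Correlations of same-numbered deviations ran from -0.07 to 0.11, and those of other pairs from -0.10 to 0.08. The ERCC share of reads did follow the number. In replicates 1 to 3 it was 1.51%, 1.18% and 1.13% under DMSO and 1.37%, 1.22% and 0.958% under JQ1. Under RG6146 it was 1.35%, 1.17% and 0.972%. What this share reflects was not tested. The replicate block called 3092 and 2789 genes, 4 and 5 of the 8, and gave Apaf1 0.40 after JQ1 (adjusted p = 0.0546). Leaving out 1 library at a time gave 3 to 5 of the 8 called after RG6146, where 2239 to 2970 of all tested genes were called. It gave 6 to 12 and 5 to 10 other cell death genes and 0 to 2 genes in RG6146 against JQ1. The values were 0.38 to 0.43 for Apaf1 after JQ1, 0.35 to 0.59 for Apaf1 after RG6146 and -0.77 to -0.47 for Cflar after RG6146. Without DMSO replicate 2 and JQ1 replicate 2, chosen after seeing the data, 8 other cell death genes were called after JQ1, and Apaf1 had 0.36. In that setting 2529 of 11235 tested genes were called after JQ1. Apart from the smaller number of libraries or genes in some settings, the cause was not tested.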

Other observations

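Gm37760, a GENCODE annotation of the type TEC, still to be tested experimentally, that lies inside the span of Casp8 on the same strand (chromosome 1, 58797783 to 58801623), held 36 to 96 reads per library. It was at 16.4 ± 1.78 CPM (SD, n = 3) under DMSO, 9.71 ± 0.660 under JQ1 and 12.8 ± 3.57 under RG6146. Its log2 fold change was -0.76 ± 0.20 after JQ1 (adjusted p = 0.00720) and -0.37 ± 0.19 after RG6146 (adjusted p = 0.170). It ends before the start of the RefSeq promoter window of Casp8 shown above, and whether its reads belong to a Casp8 transcript was not tested.

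Mlxip, which encodes the glucose-responsive transcription factor MondoA and is the nearest tested gene at lower coordinates to Diablo (51.8 kb), rose by 0.50 ± 0.12 and 0.49 ± 0.12 (adjusted p = 0.00371 and 0.00493). Vps33a, 4.48 kb away on the other side, had -0.31 ± 0.16 (adjusted p = 0.155) after JQ1 and fell by 0.48 on the log2 scale after RG6146 (adjusted p = 0.0331). Ripk3 and Mlkl, a kinase and its target in necroptosis, summed to 19 and 9 reads over all 9 libraries.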
